A study of Mus musculus with 38 samples.

Results

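The 10 genes described here belong to the bone morphogenetic protein (BMP) pathway and were taken from a list of names: the ligands *Bmp2*, *Bmp4* and *Bmp7*, the receptors *Bmpr1a* and *Bmpr2*, the target genes *Id1*, *Id2* and *Id3*, and the inhibitory SMAD genes *Smad6* and *Smad7*. They were 10 of 21911 protein-coding genes in the annotation. Each gene was followed over its body with 50 kb on either side (a window), in the mm10 build. In this window the intervals were counted that the authors had called as enriched for a histone mark. H3K4me1, monomethylated lysine of histone H3, marks enhancers whether or not they are active. H3K27ac, acetylated lysine of the same histone, marks active enhancers and promoters.

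The samples were mouse epidermal stem cells (EpdSCs) in which the hair follicle factor SOX9 was switched on. Skin cells came from male K14rtTA; TRE-myc-Sox9 mice, whose epithelial *Krt14* promoter drives the doxycycline (DOX) dependent activator of a MYC-tagged *Sox9* transgene. All groups, D0 included, carried both transgenes, and cells were sorted as negative for CD31, CD45, CD117, CD140a and CD34 and high for CD49f and Ly6A. D0 cells had no DOX, W1, W2 and W6 cells had 1, 2 and 6 weeks of DOX from postnatal day 21, and W12 cells had 12 weeks in skin patches grafted from newborns onto immunocompromised hosts. Weeks of DOX thus rise with age, and no uninduced list of a later time point was among the lists. The parts of SOX9, age and, at W12, grafting can therefore not be told apart. In culture, EpdSCs with *Krt14-rtTA* carried lentiviral WT SOX9, ΔHMG-SOX9 without the DNA-binding HMG box, or ΔTA-SOX9 without the transactivation domain. The WT line without DOX was the reference, and only H3K4me1 was measured in culture. There were 38 libraries in 16 groups, 19 from a high and 19 from a low digest with micrococcal nuclease (MNase). A high and a low library share every other part of their label, so that such pairs are not separate animals or cultures. The authors merged digests and replicates before calling, so that each mark and condition has 1 pooled list, 14 lists in all. There was therefore no spread between replicates and no test of any difference. A share of intervals carries its exact 95% Clopper-Pearson interval, which covers counting error only. Libraries of the first W2 replicate were labelled together with those of W12.

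BMP ligands bind pairs of type I and type II receptors on the cell surface, and the receptors phosphorylate SMAD transcription factors, which enter the nucleus with SMAD4. *Id* genes, encoding inhibitors of basic helix-loop-helix factors, are classic direct targets. *Smad6* and *Smad7* are targets too and feed back to block receptor signalling. In skin, BMP signals hold hair follicle stem cells at rest, and their local inhibition accompanies the formation and regrowth of follicles.

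The H3K27ac lists held 29081 to 33985 peaks each and the H3K4me1 lists of skin 69439 to 87287 domains. Background pileup recovered from the H3K27ac lists ran from 0.299 (W1) to 0.677 (W6). Folds are ratios of pileup to background and depend on depth, so that peaks are compared between lists by rank only. From 83.3% (W12) to 96.0% (D0) of a list's H3K27ac folds fell on steps of 1 background value, with 1 added to both terms. A peak in the top 10% is among the 10% of its list with the highest score of the caller, with the wider first among equals. Of the 5 H3K27ac lists, that of W2 had the widest peaks, with a median of 821 bp against 635 bp at D0. It also covered the most bases, 32.1 Mb against 27.3 Mb at D0. The W12 list of H3K27ac stood apart. Its median peak was 476 bp wide, against 635 to 821 bp in the other 4 lists, and 73.9% of its peaks lay in an H3K4me1 domain of the same time point, against 94.1% to 97.4%. At the 10 genes that share was 85.2% at W12 (46 of 54 peaks, interval 72.9% to 93.4%). Peaks within 1 kb of a start site were found at *Krt5*, *Krt14*, *Itga6* and *Trp63*, genes of basal epidermis, in all 5 lists. Of the surface proteins used to exclude cells, the genes of 4 were looked at, and that of CD34 was not among them. *Ptprc*, *Kit* and *Pdgfra* had no peak within 1 kb of a start in any list. *Pecam1*, which encodes the endothelial protein CD31, had none at D0, W1 and W2, one of 4.77-fold at W6 and one of 14.9-fold at W12. Of 10 endothelial genes, chosen with the next 3 lists after this was seen, 2 had a peak at W12 (*Pecam1* and *Emcn*), 1 at W6 and 1 at W1, and 8 were without one at W12. Of 10 melanocyte genes, 1, 2, 1, 1 and 2 had a peak from D0 to W12, the strongest at *Pmel* at D0 with 13.3-fold enrichment. None of 10 fibroblast and 10 immune genes had one in any list. The part of endothelial cells and melanocytes in the values below was not tested.

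*Ligands.* *Bmp2* and *Bmp4* carried less of both marks after SOX9 induction, whereas *Bmp7* kept H3K4me1 and had at least 1.5-fold more H3K27ac at W6 only. For *Bmp4* (chr14:46383520-46390669, minus strand), H3K27ac peaks covered 4.42% of the window at D0 and 3.49%, 0.445%, 0.271% and 0% in the later lists in order of time. The number of peaks went from 6 at D0 to 4, 1, 1 and 0. H3K4me1 covered 40.8%, 29.0%, 16.4%, 13.3% and 23.8% in the same order, so that coverage was 2.48-fold lower at W2, 3.06-fold lower at W6 and 1.71-fold lower at W12 than at D0. With coverage divided by the bases each list covers genome-wide, the W12 ratio was 0.669 and no longer past 1.5-fold. The domain at the *Bmp4* start was 15400 bp wide at D0 and 3600, 7000, 5000 and 7000 bp wide in the 4 later lists. The start thus stayed marked by H3K4me1 in all 5 lists while H3K27ac within 1 kb of it was called at D0 and W1 only.

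The sequences below are shown because they lost H3K27ac at *Bmp4*. Each is 200 bp of the plus strand of GRCm38 centred on the summit of a D0 peak. The first lies in an intron 570 bp downstream of the nearest annotated start (D0 fold 5.998, rank in the top 49.7% of the list, called at D0 and W1). The other lies 49 kb upstream in an intron of the non-coding gene *Gm15221* (D0 fold 7.997, top 36.1%, called at D0 only). Motif letters would stand in capitals, and neither window holds a letter run of the motifs searched on both strands. The SOX motif was ACAATGG with its variant ACAAAGG. The AP1 motif was TGANTCA, the GATA motif AGATAA and the RUNX motif TGTGGTT. The motif of SMAD1/5 was GGCGCC with its variant GGAGCC.
Bmp4 start region, chr14:46389880-46390079: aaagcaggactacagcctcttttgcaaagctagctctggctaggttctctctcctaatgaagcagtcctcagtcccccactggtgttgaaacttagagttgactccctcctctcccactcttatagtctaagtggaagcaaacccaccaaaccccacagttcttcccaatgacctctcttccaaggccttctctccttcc
Bmp4 upstream, chr14:46439639-46439838: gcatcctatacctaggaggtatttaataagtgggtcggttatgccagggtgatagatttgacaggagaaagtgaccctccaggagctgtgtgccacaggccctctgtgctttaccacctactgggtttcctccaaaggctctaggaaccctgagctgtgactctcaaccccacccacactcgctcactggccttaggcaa

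**Figure D1:**
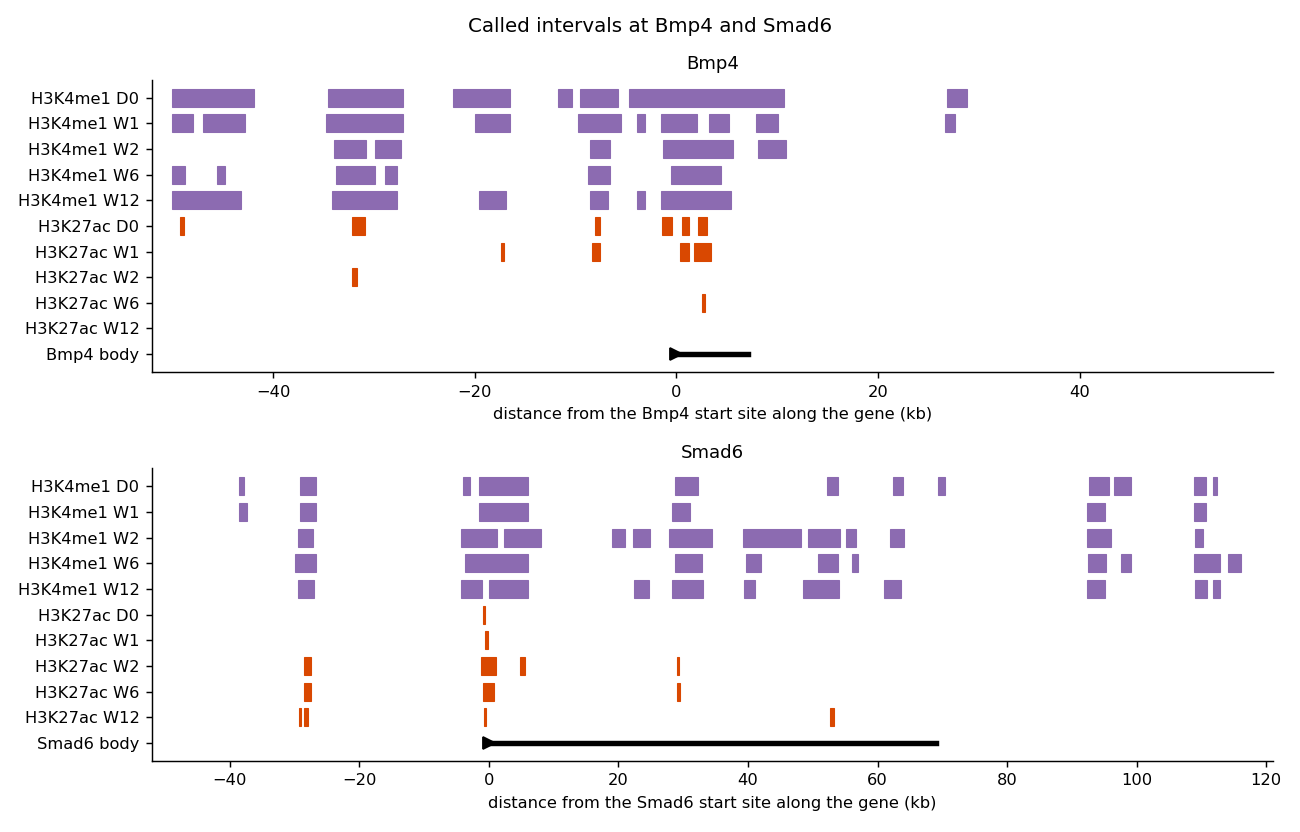
Called intervals at *Bmp4* and *Smad6* in the 10 skin lists, against the distance from the start of the gene along its direction (kb). Purple bars are H3K4me1 domains, orange bars H3K27ac peaks and the black bar is the gene body: at *Bmp4* the 6 peaks of D0 give way to none at W12, and at *Smad6* peaks are added from W2 beside the 1 at its start.

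*Bmp2* (chr2:133552159-133562885, plus strand) had 3, 3, 0, 0 and 2 H3K27ac peaks from D0 to W12, covering 3.56%, 1.64%, 0%, 0% and 1.31% of the window. Its strongest D0 peak was 2553 bp wide, began 106 bp downstream of the start, had 9.33-fold enrichment and ranked in the top 26.6% of the list. It was called again at W12 with 7.08-fold enrichment in the top 24.2%. H3K4me1 at *Bmp2* covered 18.1%, 14.3%, 11.6%, 9.57% and 9.75%, so that the W12 value stayed near that of W6. Among domains above the median of their list this ratio to D0 was 0.731 at W2 and W6 and 0.746 at W12, short of 1.5-fold.

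*Bmp7* (chr2:172868012-172940321, minus strand) differed from the other ligands. H3K27ac covered 4.39%, 6.14%, 5.25%, 8.59% and 2.63% of its window from D0 to W12, in 8, 11, 5, 9 and 8 peaks. At W1 and W2 coverage was 1.40-fold and 1.19-fold that of D0, short of 1.5-fold, and 5 of the 8 D0 peaks were lost at W2. The W6 value was 1.95-fold that of D0 (1.40-fold with flanks of 100 kb), and the W12 value 1.67-fold lower. Its start-site peak widened from 1397 bp at D0 to 1675 bp, 3761 bp and 5485 bp at W1, W2 and W6, with its rank moving from the top 47.1% to the top 9.67% at W6. No H3K27ac peak lay within 1 kb of the *Bmp7* start at W12. H3K4me1 stayed between 43.2% and 54.1%, highest at W6. The window also holds *Spo11*, a meiotic recombination gene.

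**Figure D2:**
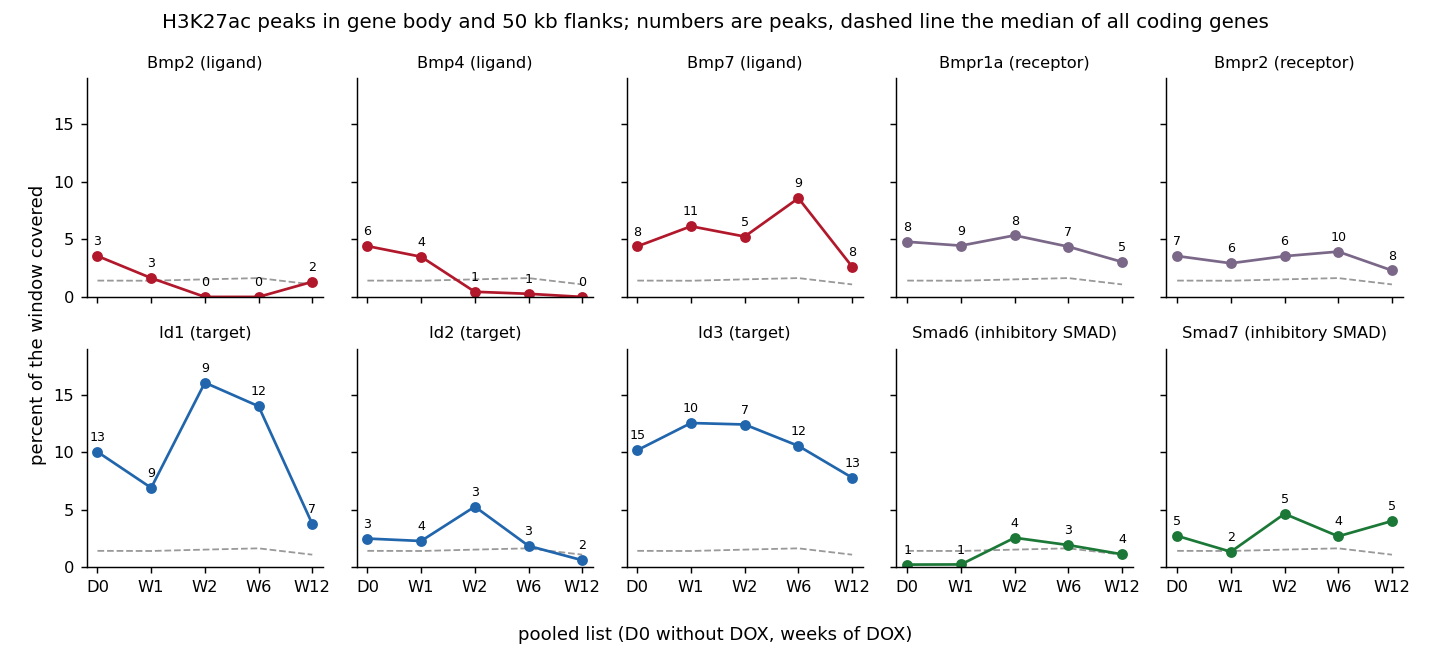
Percent of each window covered by H3K27ac peaks (y axis) in the 5 pooled lists of skin (x axis, not to scale in time), 1 panel a gene, coloured by role. Numbers count peaks and the dashed line is the median of all protein-coding genes: *Bmp2* and *Bmp4* drop below it at W2 and W6, and *Id1* reaches 16.05% at W2.

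*Receptors.* The H3K27ac coverage of both receptor genes stayed within 1.5-fold of D0 up to W6. *Bmpr1a* (chr14:34410734-34503341, minus strand), encoding the main type I receptor of epidermis, had 8, 9, 8, 7 and 5 H3K27ac peaks from D0 to W12, covering 4.79%, 4.46%, 5.35%, 4.37% and 3.04%. *Bmpr2* (chr1:59763400-59879014, plus strand), encoding the type II receptor, had 7, 6, 6, 10 and 8 peaks covering 3.55%, 2.93%, 3.54%, 3.94% and 2.30%. At W12 these values were 1.58-fold and 1.54-fold lower than at D0. Divided by the bases each list covers genome-wide, the W12 ratios were 0.75 and 0.766, short of 1.5-fold, and the undivided median ratio over all genes was 0.712. *Bmpr2* had the highest start-site fold of the 10 genes in each list but W12, with 32.7-fold enrichment in the top 2.16% at D0 and 34.6-fold in the top 0.259% at W6. At W12 that peak was split in 2, its stronger part had 9.21-fold enrichment and it ranked in the top 13.3%. The highest fold in the *Bmpr1a* window, 42.6 at D0, belonged to a peak nearest to the start of *Fam25c* and more than 95 kb from a *Bmpr1a* start, while the strongest peak within 1 kb of a *Bmpr1a* start had 27.3-fold enrichment in the top 3.86%. H3K4me1 covered 49.5%, 45.0%, 51.1%, 44.1% and 38.6% of the *Bmpr1a* window and 28.9%, 22.1%, 21.8%, 20.5% and 24.0% of the *Bmpr2* window. The W2 list had no H3K4me1 domain within 1 kb of the *Bmpr2* start, the only such gap among the 10 genes in the 5 lists.

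*Targets.* *Id1* and *Id3* were among the most covered of all genes and *Id2* was nearer the middle: at D0 their H3K27ac coverage exceeded that of 96.3%, 96.4% and 64.7% of protein-coding genes. *Id1* and *Id2* had their widest H3K27ac coverage at W2. *Id1* (chr2:152736251-152737410, plus strand) had H3K27ac over 10.03%, 6.90%, 16.05%, 13.99% and 3.76% of its window from D0 to W12. The W2 value was more than at 99.0% of protein-coding genes. Its peak at the start measured 1947, 2263, 5577, 3006 and 492 bp in the same order. The number of peaks did not rise with the coverage (13 at D0, 9 at W2), so that the W2 value came in part from wider peaks. Of the 9 W2 peaks, 3 had no overlapping peak at D0. Peaks were wider over the whole W2 list too, with a median of 821 bp against 635 bp at D0. Divided by the bases each list covers genome-wide, the W2 ratio at *Id1* was short of 1.5-fold. H3K4me1 at *Id1* varied little, between 53.0% and 57.7%. The window also contains *H13*, *Mcts2*, *Cox4i2* and *Bcl2l1*, and 2 of its 11 H3K27ac sites, taken as merged intervals over the 5 lists, were nearest to an *Id1* start.

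*Id2* (chr12:25093799-25097140, minus strand) had 3, 4, 3, 3 and 2 peaks over 2.49%, 2.28%, 5.26%, 1.85% and 0.603% of its window. H3K27ac at W2 was thus 2.12-fold and at W12 0.242-fold that of D0. With flanks of 100 kb the W12 ratio was 0.727, short of 1.5-fold. H3K4me1 at *Id2* stayed between 23.8% and 26.1%. *Id3* (chr4:136143497-136145755, plus strand) had 15, 10, 7, 12 and 13 peaks over 10.2%, 12.5%, 12.4%, 10.5% and 7.78% and passed 1.5-fold in no list. Its start-site peak ranked in the top 5.22%, 6.53%, 9.43%, 22.1% and 15.7% of the 5 lists from D0 to W12. H3K4me1 at *Id3* covered 59.8% at D0 and was lowest at W2 with 41.5%. The window of *Id3* contains *E2f2*, and 4 of its 16 H3K27ac sites were nearest to an *Id3* start.

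The following *Id3* and *Bmpr1a* sequences were, after the upstream *Bmp4* peak, the strongest H3K27ac peaks called at D0 and in no later list. They are 200 bp of the plus strand of GRCm38 around the D0 summit, with folds of 6.66 (top 45.6%) and 5.998 (top 48.9%). The *Id3* site lies 32 kb downstream of the *Id3* start in an intron of *E2f2*, and the *Bmpr1a* site in an intron of *Bmpr1a*. Neither holds any of the motif letters.
Id3 downstream, chr4:136175223-136175422: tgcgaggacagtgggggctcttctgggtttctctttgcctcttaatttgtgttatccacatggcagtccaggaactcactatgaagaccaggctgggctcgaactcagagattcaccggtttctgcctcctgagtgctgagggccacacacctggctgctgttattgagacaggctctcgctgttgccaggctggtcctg
Bmpr1a intron, chr14:34468396-34468595: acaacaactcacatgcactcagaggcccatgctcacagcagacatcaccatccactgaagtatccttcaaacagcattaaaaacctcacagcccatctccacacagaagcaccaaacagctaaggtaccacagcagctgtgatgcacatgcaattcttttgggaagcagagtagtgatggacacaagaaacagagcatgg

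*Inhibitory SMADs.* *Smad6* gained H3K27ac from W2 on, and it was the only member covered at least 1.5-fold more than at D0 in the W2, W6 and W12 lists. In *Smad6* (chr9:63953076-64022059, minus strand) 1, 1, 4, 3 and 4 peaks were called from D0 to W12, covering 0.223%, 0.236%, 2.56%, 1.92% and 1.12% of the window. Coverage was 11.5-fold that of D0 at W2, 8.62-fold at W6 and 5.02-fold at W12. D0 coverage was low, a single peak of 377 bp, so that these ratios rest on few bases. This D0 peak did not rank above the median of the list. The peak at the *Smad6* start had 3.998-fold enrichment at D0 (top 86.3% of the list) and 3.85-fold at W1 (top 80.4%). In the next lists it had 8.42-fold (W2, top 27.9%), 14.9-fold (W6, top 12.4%) and 6.38-fold enrichment (W12, top 35.9%). Its rank was thus higher in each of the last 3 lists than in the first 2. H3K4me1 covered 16.3%, 11.01%, 28.3%, 20.0% and 20.2% of the window, 1.73-fold more at W2 than at D0, and 1.33-fold more with flanks of 100 kb. An intronic H3K4me1 domain 44 kb downstream of the start (chr9:63973801-63982800) was absent at D0 and W1 and was 9000 bp, 2400 bp and 1600 bp wide at W2, W6 and W12. By p-value it ranked in the top 51.8%, 98.6% and 83.7% of these lists, so that it was among the weakest domains at W6. It was the only H3K4me1 site of 127 at the 10 genes that was absent at D0 and called in all 3 of these lists. Without the W12 list, a choice made after seeing the data, there were 2 such sites, both at *Smad6*.

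One H3K27ac site of 100 at the 10 genes was absent at D0 and called at W2, W6 and W12. It lies 28 kb upstream of *Smad6*, where it overlaps the start of the non-coding gene *1110036E04Rik*, with its W2 summit in an exon of that gene. It was not called at W1 either. Without the W12 list, 7 sites were absent at D0 and called at W2 and W6, 2 of them at *Smad6*, 2 at *Id1* and 1 each at *Bmp7*, *Bmpr1a* and *Id3*. The folds of the site upstream of *Smad6* were 7.02 at W2 (top 41.1%), 11.9 at W6 (top 20.6%) and 7.08 at W12 (top 26.0%). The site lay in an H3K4me1 domain in all 5 skin lists, D0 included, and in an interval of all 4 culture lists. Its sequence is shown as the lasting gain, together with the window around the W6 summit of the *Smad6* start-site peak, 561 bp upstream of the start, and the 250 bases before the RefSeq start of *Smad6* (GRCm38.p6, minus strand). Summit windows are plus strand. Capitals mark ACAAAGG in the first sequence and GGAGCC, on either strand, in all of them.
Smad6 upstream, chr9:64049782-64049981: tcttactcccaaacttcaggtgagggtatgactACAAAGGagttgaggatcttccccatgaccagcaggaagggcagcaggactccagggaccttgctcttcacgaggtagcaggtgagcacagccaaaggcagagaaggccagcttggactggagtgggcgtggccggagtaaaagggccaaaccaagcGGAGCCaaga
Smad6 start-site peak, chr9:64022520-64022719: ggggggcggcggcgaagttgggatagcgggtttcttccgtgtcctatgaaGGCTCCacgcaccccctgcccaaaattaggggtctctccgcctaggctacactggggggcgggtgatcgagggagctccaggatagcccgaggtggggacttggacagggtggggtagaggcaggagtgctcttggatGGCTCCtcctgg
Smad6 promoter, chr9:64022060-64022309: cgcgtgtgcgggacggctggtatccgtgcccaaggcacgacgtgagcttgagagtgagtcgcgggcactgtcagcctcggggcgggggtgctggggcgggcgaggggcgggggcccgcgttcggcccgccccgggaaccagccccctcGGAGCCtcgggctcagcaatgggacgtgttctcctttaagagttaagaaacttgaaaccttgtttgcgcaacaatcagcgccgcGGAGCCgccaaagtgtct

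Among the 29081 windows of 200 bp around W2 summits, ACAAAGG was found in 4.24% and GGAGCC in 18.2%, and among the W6 windows GGAGCC was found in 19.6%. Of 27025 genes, 33.5% held GGAGCC in at least 1 promoter, taken from 250 bases before to 50 bases after a start. These promoters are longer than the *Smad6* sequence shown, which ends before the start. Both letter runs are thus common in such windows, and the matches are a description and not sites of a factor.

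*Smad7* (chr18:75367529-75395935, plus strand) had 5, 2, 5, 4 and 5 H3K27ac peaks over 2.72%, 1.34%, 4.64%, 2.68% and 4.01% of its window. This was 2.03-fold lower at W1 and 1.70-fold higher at W2 than at D0, and at W6 the ratio to D0 was 0.985. Divided by the bases each list covers genome-wide, the W2 ratio was 1.45 at *Smad7* and 1.36 at *Id1*, short of 1.5-fold. The start-site peak was present in all 5 lists. At W12, 3 of its 5 peaks had no D0 counterpart, among them an intronic peak of 11.3-fold enrichment in the top 6.70% that was called at W12 only. H3K4me1 covered 37.8%, 27.7%, 39.6%, 40.8% and 43.3%.

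**Figure D3:**
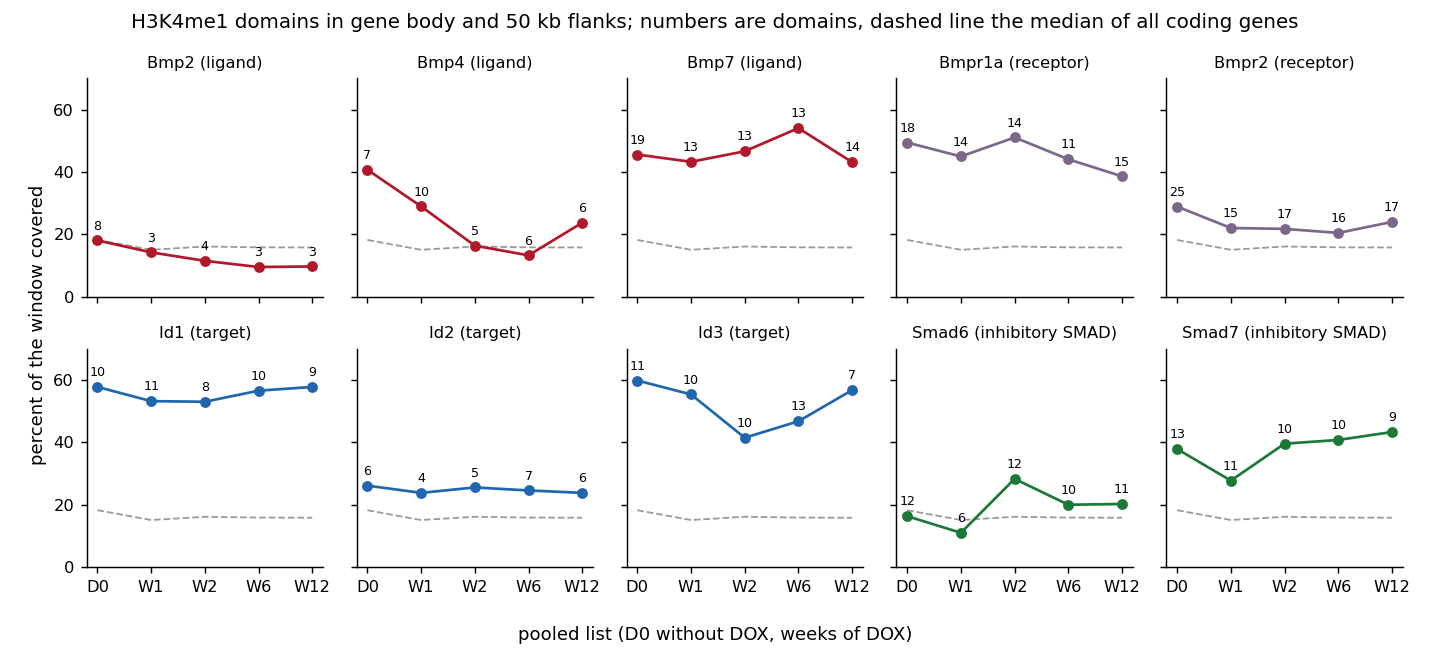
Percent of each window covered by H3K4me1 domains (y axis) in the 5 pooled lists of skin (x axis, not to scale in time), with the number of domains at each point and the median of all protein-coding genes as a dashed line. *Bmp4* goes from 40.8% at D0 to 13.3% at W6, *Smad6* has its highest value at W2, and *Id1* and *Id2* are nearly level.

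Set against all genes, the members' counts were read beside the share of protein-coding genes past the same 1.5-fold change. For H3K27ac, 0 members were covered more at W1 (19.6% of all genes), 4 at W2 (*Id1*, *Id2*, *Smad6* and *Smad7*, 23.9%), 2 at W6 (*Bmp7* and *Smad6*, 28.4%) and 1 at W12 (*Smad6*, 19.9%). Covered less were 2 at W1 (*Bmp2* and *Smad7*, 18.8%), 2 at W2 (*Bmp2* and *Bmp4*, 16.7%), the same 2 at W6 (13.3%) and 7 at W12 (40.5%), that is all but *Id3*, *Smad6* and *Smad7*. At W12 the median ratio over all genes was 0.712, and the list covered 23.1 Mb against 27.3 Mb at D0. Divided by these totals, 4 members were covered less at W12 (*Bmp2*, *Bmp4*, *Id1* and *Id2*). The share of all genes under this division is not given here, and the 40.5% is for undivided coverage. For H3K4me1, 0 members were covered more and 0 less at W1 (2.53% and 18.2% of all genes). At W2 *Smad6* was covered more (9.1%) and *Bmp2* and *Bmp4* less (19.7%). *Bmp2* and *Bmp4* were also the members covered less at W6 (18.7%) and at W12 (19.8%), and none was covered more (7.51% and 7.49%). Read against these shares, the widest gaps were at the 7 of 10 less at W12, at 0 of 10 for more H3K27ac and for less H3K4me1 at W1, and at 4 of 10 for more H3K27ac at W2. These gaps are of undivided coverage with 50 kb flanks, and each of these counts moved under at least 1 alternative setting. With 10 genes and no test, the gaps are a description only. All 4 comparisons of a mark share the D0 list. In each list the members' median coverage exceeded that of all genes, with 3.98% against 1.42% for H3K27ac and 39.3% against 18.2% for H3K4me1 at D0.

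Interval by interval, a smaller share of the H3K4me1 domains in the 10 windows was gained than of the whole lists. Gained means without an overlapping interval in the D0 list, and lost means called at D0 and without one in the later list. Of 97 H3K4me1 domains at W1, 0 were gained, against 5.96% of the whole list. A count of 0 allows a share of up to 3.09% if 3 counts are taken as its limit, and 3.73% is the upper end of the exact interval. At W2 the share was 9.18% (9 of 98, interval 4.29% to 16.7%) against 20.0%, at W6 6.06% (6 of 99, 2.26% to 12.7%) against 17.1%, and at W12 6.19% (6 of 97, 2.30% to 13.0%) against 15.6%. In all 4 comparisons the whole-list share was above the members' interval. At D0 the members' windows were already more covered than those of all genes (median 39.3% against 18.2%). This leaves less room for a domain without a D0 overlap, and its part in the smaller share was not tested. Neighbouring domains of 1 gene are also not independent, which the exact intervals leave out. Of the W2 domains nearest to a start of a member itself, 17.1% (6 of 35, interval 6.56% to 33.6%) were gained. For such domains the intervals of all 4 later lists hold the whole-list share, so that no smaller share was detectable there at these counts. At D0 the members had 129 domains, of which 27.9%, 29.5%, 27.1% and 26.4% were lost at W1, W2, W6 and W12, against 27.8%, 32.4%, 26.6% and 31.2% of the whole list, each within the members' interval. Of the 9 gained domains at W2, 4 sites were at *Smad6*, 2 at *Smad7*, and 1 each at *Bmpr1a*, *Bmpr2* and *Id2*.

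For H3K27ac, the gained share of the members' peaks was 30.5% (W1, 18 of 59), 29.2% (W2, 14 of 48), 34.4% (W6, 21 of 61) and 38.9% (W12, 21 of 54, interval 25.9% to 53.1%). The whole lists had 41.3%, 40.1%, 39.8% and 56.2%, which lay within the members' intervals at W1, W2 and W6 and above that at W12. Of the 69 D0 peaks, 36.2%, 34.8%, 36.2% and 56.5% were lost in the same order, against 37.4%, 38.6%, 37.8% and 53.7%, all within the intervals. Of the 100 H3K27ac sites, 21 were called in all 5 lists (26 in the 4 without W12), 13 at D0 only and 13 at W12 only. At 12 sites H3K27ac was absent at D0 and called at W2, and all 12 already lay in an H3K4me1 domain at D0. This is close to the rule for any peak, since 95.8% of the members' W2 peaks and 94.1% of the whole W2 list overlapped a D0 domain. The 21 sites called at D0 and not at W2 all overlapped an H3K4me1 domain at D0, and 19 of them did at W2.

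**Figure D4:**
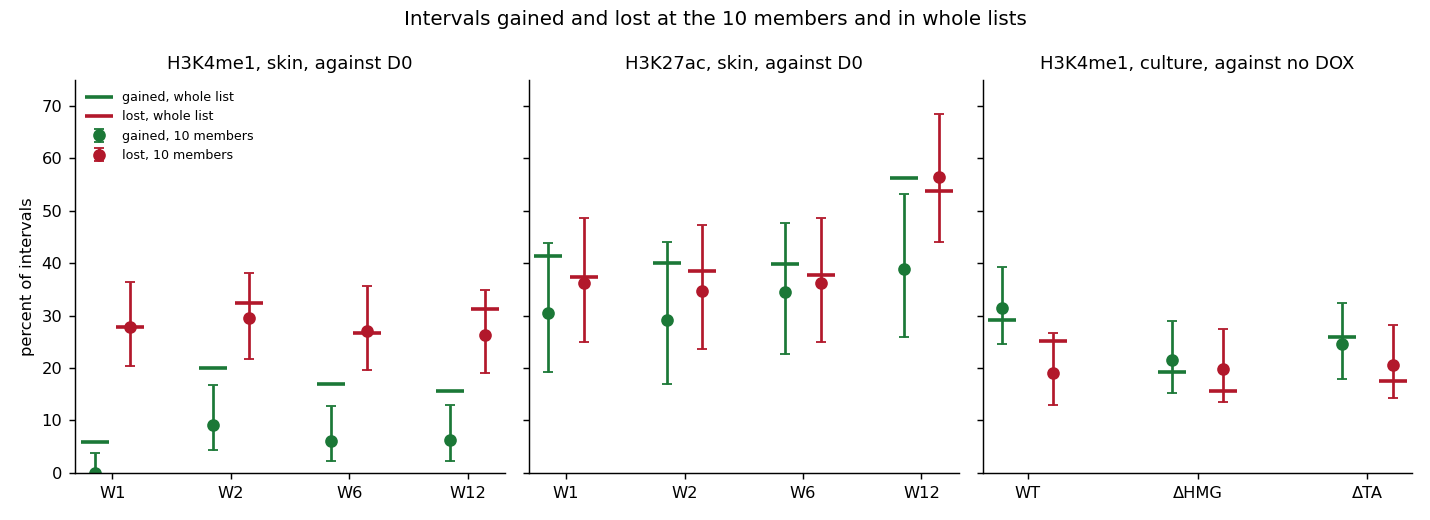
Share of intervals gained (green) and lost (red) at the 10 genes, as points with exact 95% intervals, and in the whole lists, as horizontal ticks, for H3K4me1 and H3K27ac of skin against D0 and H3K4me1 of culture against no DOX (x axis: later list, y axis: percent). The green ticks of skin H3K4me1 lie above the intervals of all 4 points.

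*Culture.* With WT SOX9 in culture, H3K4me1 was wider at *Bmp2*, *Bmpr1a* and *Bmpr2* and narrower at *Bmp4*, and with either truncated protein no member was past 1.5-fold. Among intervals above the median of their list, 1 member was covered more and 2 less with ΔHMG, and 1 more with ΔTA. No share of all genes is given for that setting. *Bmp2* was covered over 4.70% of its window without DOX, 8.56% with WT, 4.54% with ΔHMG and 5.94% with ΔTA. *Bmpr1a* had 9.23%, 16.3%, 10.2% and 9.59%, and *Bmpr2* 7.55%, 12.3%, 7.88% and 7.25%. In these 3 genes the WT value was the highest of the 4. *Bmp4* had 4.82%, 1.79%, 4.95% and 4.75%, so that with WT it was 2.69-fold lower. Over the whole genome the WT list covered 133.1 Mb, against 119.7 Mb without DOX. Divided by these totals, the WT ratio at *Bmpr2* was short of 1.5-fold, and those at *Bmp2*, *Bmpr1a* and *Bmp4* were still past it. All 3 culture intervals called with WT at *Bmp4* lay outside the 1 kb around its start, as did those of the other 3 lists. Among intervals above the median of their list, the ratio of WT to no DOX turned to 0.96 at *Bmp2* and 0.705 at *Bmpr1a*, while it was 2.87 at *Bmpr2* and 0.399 at *Bmp4*. With flanks of 10 kb the *Bmp4* ratio was 0.683, short of 1.5-fold. The direction at *Bmp4* was the same as in skin, whereas *Bmp2* was covered more in culture and less in skin. *Smad6*, covered 1.73-fold more at W2 in skin, had 10.4% without DOX and 12.04%, 13.4% and 13.4% with WT, ΔHMG and ΔTA.

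At the other members the WT value was 15.9% at *Bmp7* (11.7% without DOX), 26.9% at *Id1* (23.0%), 13.6% at *Id2* (13.2%), 17.8% at *Id3* (18.8%) and 21.6% at *Smad7* (17.1%). *Smad7* had 22.6% with ΔTA and 15.9% with ΔHMG. Beside these counts of 3 members more and 1 less with WT stand 15.7% and 7.87% of all genes. Beside the 0 and 0 of ΔHMG stand 8.21% and 4.61%, and beside the 0 and 0 of ΔTA 15.8% and 3.81%. The 3 comparisons share the list without DOX. Differences between the proteins were not tested, since each has 1 list.

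**Figure D5:**
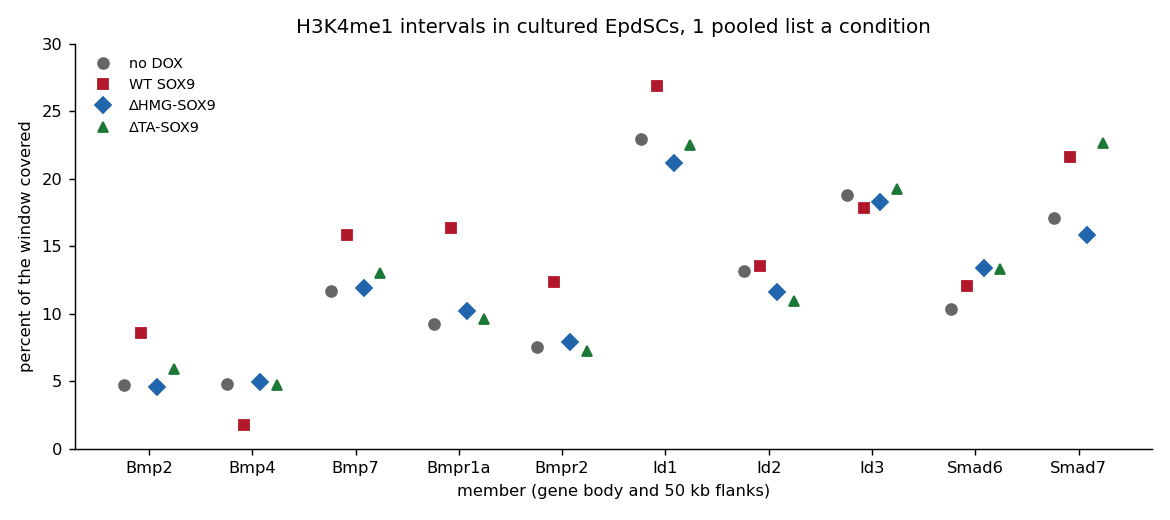
Percent of each window covered by H3K4me1 intervals in cultured EpdSCs (y axis) for the 10 genes (x axis), with 1 point for each pooled list. Red squares (WT SOX9) stand above the other 3 points at *Bmp2*, *Bmp7*, *Bmpr1a*, *Bmpr2*, *Id1* and *Id2* and below them at *Bmp4* and *Id3*.

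Of the 165 culture intervals with WT at the 10 genes, 31.5% (52, interval 24.5% to 39.2%) were gained, against 29.1% of the whole list, and of 141 without DOX 19.1% (27, 13.0% to 26.6%) were lost, against 25.1%. With ΔHMG 21.5% were gained (19.3% of the whole list) and 19.9% lost (15.6%). With ΔTA 24.7% were gained (25.8%) and 20.6% lost (17.5%). All 6 whole-list shares lay within the members' intervals. Of the 215 culture sites, 31 were called with WT only, 10 of them at *Bmpr2* and 6 at *Bmpr1a*. The highest ranked of these was an intronic site of *Bmpr2* (chr1:59847776-59848713) with 5.55-fold enrichment in the top 2.78%. A site 3.4 kb upstream of the *Smad6* start (chr9:64025143-64025737) was gained with WT, ΔHMG and ΔTA alike, in the top 8.31% with WT and in the top 83.9% and 98.8% with the others. Of the sites called without DOX, 15 were absent with both WT and ΔHMG, led by one 33 kb downstream of the *Bmp4* start, with 4.70-fold enrichment in the top 31.9% without DOX, which remained called with ΔTA.

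*Other genes of the pathway.* Of 35 further ligand, receptor, SMAD, antagonist, regulator and target genes, 28 had H3K27ac at D0 or W2. At W2, 10 were covered at least 1.5-fold more and 6 less, and at W12 11 more and 11 less of 31. Beside these stand 23.9% more and 16.7% less of all genes at W2, and 19.9% and 40.5% at W12. The widest increase at W2 was at *Sostdc1*, a secreted inhibitor of BMP and WNT signalling, whose H3K27ac coverage was 1.32%, 11.4%, 13.4%, 9.83% and 4.19% from D0 to W12. The widest decrease was at *Twsg1*, which encodes a secreted BMP-binding protein, with 9.30%, 6.82%, 5.996%, 5.88% and 1.76%. *Twsg1* also had the widest decrease at W12, and *Smurf1*, encoding a ubiquitin ligase that acts on SMAD proteins, the widest increase, from 2.31% at D0 to 7.17%. In culture *Sostdc1* had the widest increase with WT, from 2.76% without DOX to 15.4%, with 4.81% for ΔHMG and 6.24% for ΔTA. Over this list 8 genes were covered more and 2 less with WT, 2 and 2 with ΔHMG and 6 and 1 with ΔTA, of 35 genes each. The shares of all genes were 15.7% and 7.87%, 8.21% and 4.61%, and 15.8% and 3.81%.

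Over all 14 lists, the gene whose coverage was most like that of *Bmp4*, by the mean absolute difference in percent covered, was *Rora* (1.71 percentage points), and for *Smad6* it was *Tead2* (1.47). The closest match of any member was that of *Id2* with *Dpp8* (0.794), and the least close that of *Id3* with *Rhod* (2.02).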

How the data were processed

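Chromatin was profiled by MINT-ChIP, which adds a barcode to the chromatin of each sample so that many can share 1 immunoprecipitation. The authors trimmed adapters, aligned reads to GRCm38/mm10 with Bowtie2 (version 2.2.9), removed duplicates with Picard, merged replicates with SAMtools (1.9) and called enrichment with MACS2 (2.1.1) or, for the broad domains of skin, with epic2, where the submitters' processing notes name SICER (0.0.36). The settings and control of each call were not given in the sources used here. H3K4me1 domains of skin were deposited with a p-value each, and 0 stands for values too small to write. H3K27ac peaks and the culture intervals were deposited with a whole-number score, a −log10 q value and a fold enrichment. The fold is a ratio of pileup to background as the authors' caller gave it. How the culture intervals were called was not given in the sources used here. Reads per library were not used here, and total H3 libraries were not analysed here. The 14 lists of barcodes hold no measurement and were not used.

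Windows were gene bodies of GENCODE M21 (basic) with 50 kb flanks, and an interval belonged to a gene when it overlapped the window by 1 bp. Coverage counts each base once. A 1.5-fold difference in covered bases was counted, over protein-coding genes with coverage in either list. Sites are intervals merged over the lists of a mark. Within a list, H3K27ac and culture intervals were ranked by score and H3K4me1 domains of skin by p-value, with the wider first among equals. All 10 genes are named, with the peaks within 1 kb of their starts. Also named are the strongest intervals absent at D0 and called at W2, W6 and W12, and those called at D0 only. In culture these are the strongest called with WT and absent without DOX, or lost with both WT and ΔHMG. Of the other pathway genes, those with the widest change of H3K27ac coverage are named. The genes and lists were chosen with earlier results of these data known, and the lists of endothelial, fibroblast, immune and melanocyte genes after the *Pecam1* peaks were seen. Values were also computed with a minimum overlap of 50% of the shorter of 2 intervals, with flanks of 10 and 100 kb, intervals above the median of their list, intervals whose nearest start is the member's, lists of equal length, coverage divided by that of the whole list and, added later, leaving out the W12 list. Overlap, coverage and shares were checked on simulated lists with known answers. Python 3.11.15, numpy 2.4.6, pandas 2.3.3, SciPy 1.17.1 and matplotlib 3.10.9 were used.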

Additional observations from a re-analysis of the deposited data

How the results depend on the processing

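No paired analysis was possible because the authors merged the replicates of each group before calling, so that no list carries a replicate number. An absent call is a value under the threshold of a list and no measure of zero signal, lists differ in depth, and with 1 list a group neither replicate spread nor any difference could be tested. Shares of gained and lost intervals were recomputed under 6 alternatives, and 8 of 132 values moved by more than their interval. With intervals above the median of their list, H3K4me1 lost was 17.6% at W1 and 11.8% at W6, H3K27ac lost was 34.4% at W12 and culture gained with WT was 40.7%. With flanks of 10 kb, H3K4me1 lost was 19.05% at W2 and H3K27ac lost was 70% at W12. Among intervals nearest to a start of the member, H3K4me1 gained was 17.1% at W2, and with lists of equal length H3K4me1 lost was 15.9% at W1. No share moved with an overlap of 50% or flanks of 100 kb.

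Counts of members past 1.5-fold are small, so 1 gene often moved them. The shares of all genes given above are for the main setting, and none is given for the alternatives that follow. With flanks of 10 kb, H3K4me1 was lower at 2 members at W1 and 1 at W2 and higher at 1 at W12, H3K27ac was higher at 1 at W1, and 0 were lower in culture with WT. With flanks of 100 kb, H3K4me1 was lower at 2 at W1 and higher at 0 at W2, and H3K27ac was higher at 1 at W6 and 2 at W12. With intervals above the median, H3K4me1 was higher at 1 and lower at 1 at W6 and higher at 1 at W12, and H3K27ac was higher at 1 at W1 and 2 at W12. In culture 2 were then lower with WT, 1 higher and 2 lower with ΔHMG and 1 higher with ΔTA. Divided by the coverage of the whole list, H3K4me1 was lower at 1 at W2 and 1 at W12, and H3K27ac was higher at 2 at W2 and 2 at W12 and lower at 4 at W12. With WT in culture *Bmpr2* was then short of 1.5-fold. Single ratios turned direction at *Bmp2* (0.96) and *Bmpr1a* (0.705), both with WT in culture among intervals above the median, where *Smad6* had no H3K27ac at D0 and so no ratio. Leaving out the W12 list moved the sites with a lasting gain from 1 to 7 for H3K27ac and from 1 to 2 for H3K4me1, since 1 list fewer had to hold the call, and the sites called in all lists from 21 to 26. For the other changes the cause was not tested.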

Other observations

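The 13 H3K27ac sites at the 10 genes that were called at W12 only lay at 8 genes, with 3 at *Smad7*, 2 each at *Smad6*, *Bmp7* and *Bmpr2*, and 1 each at *Bmpr1a*, *Id1*, *Id2* and *Id3*. Their folds ran from 3.23 to 11.3.

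Letters of a SMAD1/5 motif, GGCGCC, stood in 5 of the members' 69 summit windows at D0, 5 of 59 at W1, 3 of 48 at W2, 3 of 61 at W6 and 5 of 54 at W12. These are 7.25%, 8.47%, 6.25%, 4.92% and 9.26%, against 5.25%, 3.97%, 4.97%, 5.37% and 3.44% of the whole lists, so that the W6 share was below that of its list and the other 4 above. The SOX letters ACAATGG stood in 1, 1, 2, 2 and 3 windows in the same order, which is 1.45%, 1.69%, 4.17%, 3.28% and 5.56%, against 2.23%, 2.30%, 2.33%, 2.11% and 2.57%. The variants ran otherwise. ACAAAGG stood in 1.45%, 6.78%, 4.17%, 1.64% and 0% of the members' windows, against 4.17%, 4.35%, 4.24%, 4.11% and 4.10%. GGAGCC stood in 18.8%, 11.9%, 8.33%, 21.3% and 22.2%, against 19.2%, 17.9%, 18.2%, 19.6% and 15.6%. Counts this small leave a wide range for each share, and neighbouring windows of 1 gene are not independent.

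Promoters of 6 of the 10 genes were matched in RefSeq, from 250 bases before to 50 after the start. Of these, 3 held GGCGCC (*Bmpr1a*, *Bmpr2* and *Id2*) and 4 held the variant GGAGCC (*Bmp4*, *Id2*, *Id3* and *Smad6*), against 13.4% and 33.5% of 27025 genes. None of the 6 held ACAATGG, which stood in 4.15% of genes.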
